A study of Homo sapiens with 3 samples.

Results

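RNA made within 30 min was compared with the input RNA of the same labelling in HEK293T, a cell line of human embryonic kidney origin, at 6407 sites taken as polyadenylated 3′ ends. Cells grown in medium with serum were given 4-thiouridine (4sU), a nucleoside that living cells build into RNA, and RNA carrying it was captured, so that the 4sU 30 min library is enriched for new transcripts. The input library is the uncaptured counterpart: its title names the 30 min labelling, while its treatment field reads none. The method, 2P-seq, aims at the junctions of mRNAs with their poly(A) tails. Whether each site is such a junction was not tested, since no genome sequence matching the positions was used. Per the labels' protocols the captured RNA skipped the first of a pair of poly(A) selections. For the input this was not given in the sources used here. Another library of the series, labelled for 60 min, was not compared.

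Same-strand positions within 24 nt of the highest summed position were merged into a site, and a site was a member when it had at least 30 CPM, the count scaled by its library's nuclear total, in either library. This kept 6407 of 614380 nuclear sites with a count in these libraries; over all 3 libraries of the series, 6727 of 779809 nuclear sites reached the minimum in at least 1. The member sites held 74.2% of nuclear counts in 4sU 30 min and 84.3% in input. The site just inside the minimum had 18.03 CPM in 4sU 30 min and 30.03 CPM in input, and the site just outside had 26.2 and 29.998 CPM. With n = 1 library on each side, no difference has a replicate check, and neither a test nor a p-value is given. Ratios are of nuclear CPM, 4sU 30 min over input, with a 95% Clopper-Pearson interval from the pair of counts, which covers counting error only; sequenced copies are not independent molecules, since the protocol names no molecular identifiers.

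The level of an mRNA in the input depends on how fast it is made and how long it lasts, while RNA labelled briefly reflects mainly how fast it is made. An mRNA that is short-lived therefore tends to take a larger share of labelled than of total RNA, and a long-lived one a smaller share. Transcripts of immediate early genes, signalling feedback regulators and many transcription factors are known for rapid turnover, and those of ribosomal proteins, respiratory chain subunits and metabolic enzymes for stability.

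The libraries held 14159691 counts in 4sU 30 min and 35410931 in input, of which 9652023 and 32768468 were nuclear; 290 and 984 counts correspond to 30 CPM. The HEK293 markers VIM, INA, NEFM, NEFL and LIN28B had member sites, VIM, an intermediate filament gene, with 652 CPM in 4sU 30 min and 550.2 in input. PAX2 stood at 1.45 and 0.305 CPM, and DLK1 had 1 count in input and none in 4sU 30 min. Among 9 markers of blood, liver, epithelium, fibroblasts, endothelium and kidney tubule, 5 had any site near their ends, and the highest value was 11.7 CPM, for APOA1 in 4sU 30 min; no count was found near the ends of PTPRC, CD3E, KRT5 and UMOD. The deposited positions fit hg19 numbering, although the sources used here name no build. Genes were named from known hg19 places of gene ends and checked against a GRCh38.p14 gene table for chromosome, strand and gene order only, which left 616 named genes; ends without a certain gene stay unnamed.

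Of the 6407 sites, 2129 (33.2%) had a ratio of 2 or more with an interval that left out 1 and are called higher, 1421 (22.2%) were lower by the same measure, and 2857 were neither. At 4-fold, 1072 (16.7%) were higher and 306 (4.78%) lower. The median log2 ratio was 0.21, and the central 90% of sites lay between -1.98 and 3.22. Sites called higher held 29.8% of nuclear counts in 4sU 30 min and 7.54% in input, and those called lower 13.6% and 43.1%. The minimum itself shaped these counts: 1984 sites passed only in 4sU 30 min, of which 1622 were called higher, and 1094 passed only in input, of which 747 were called lower. A site that passed in 1 library only had to have more CPM in that library. Of the 3329 sites that passed in both libraries, 507 were higher and 674 lower, with a median log2 ratio of -0.13.

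The balance also moved with the scaling. Of all calls, 60.0% were higher under nuclear CPM, 52.0% under median-of-ratios size factors (1887 higher, 1739 lower) and 35.8% with mitochondrial counts in the totals (1120 higher, 2009 lower). The median of all sites was then 0 and -0.55, so a gene or list is best read against the median of all sites. Mitochondrial transcripts took 31.8% of all counts in 4sU 30 min and 7.46% in input.

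**Figure D1:**
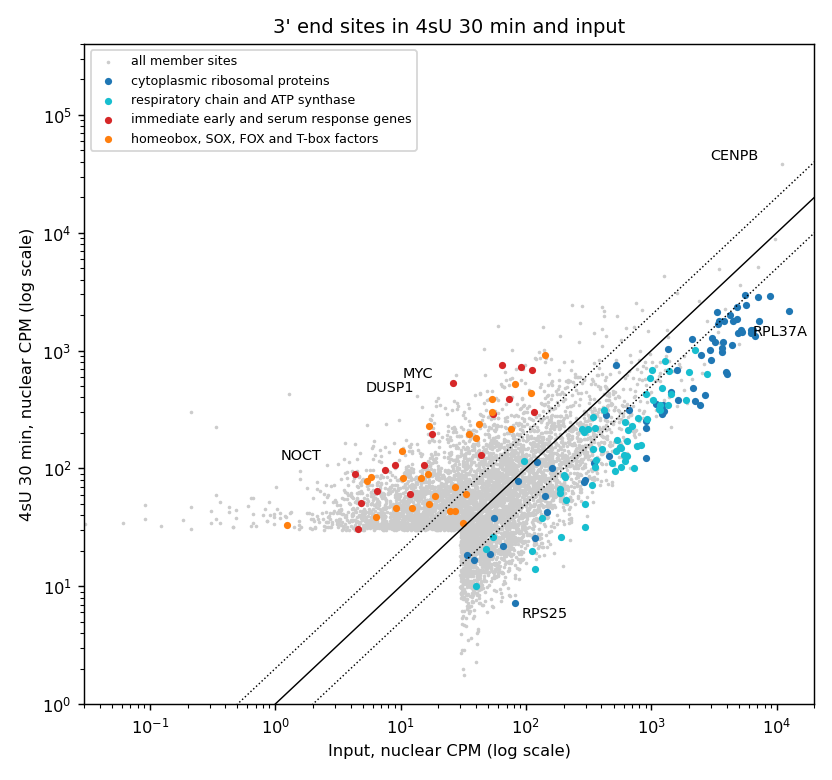
Nuclear CPM of each member site in input (x axis, log scale) and in 4sU 30 min (y axis, log scale), 1 point per site, with 4 function lists coloured by gene, a solid line at equal CPM and dotted lines at 2-fold. Ribosomal protein and respiratory chain genes lie mostly below the lower dotted line at high input CPM, immediate early and homeobox genes above the upper one, and the corner cut out at lower left is the 30 CPM minimum.

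Among the named genes, the low end held genes of membranes, the mitochondrion, the ribosome, metabolism and chromatin. The high end held mostly transcription regulators. The 40 genes with the lowest ratios, from -3.51 to -2.68 on the log2 scale, included 9 of membranes and the secretory route, 7 mitochondrial proteins, 5 of the ribosome and translation, 5 metabolic enzymes, 5 of DNA, chromatin and chromosome segregation, and 1 transcription regulator. The 40 with the highest ratios, from 3.77 to 5.11, included 23 transcription regulators, of which 10 were numbered ZNF zinc finger genes. They also held 9 signalling or secreted factors and 3 genes of ubiquitin and protein turnover. None was placed in the classes of the ribosome, the mitochondrion, metabolism or membranes, but each gene was given a single class and may fit others as well. These classes were assigned by hand after the values were seen and to recognised genes only, so they describe the named ends and carry no test. How common each class is among all 616 named genes was not counted. Of those genes, 67 were cytoplasmic ribosomal protein genes and 61 respiratory chain genes of the function lists below. All lowest and highest values had the direction in which the site passed the minimum, apart from those that passed in both libraries.

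**Figure D2:**
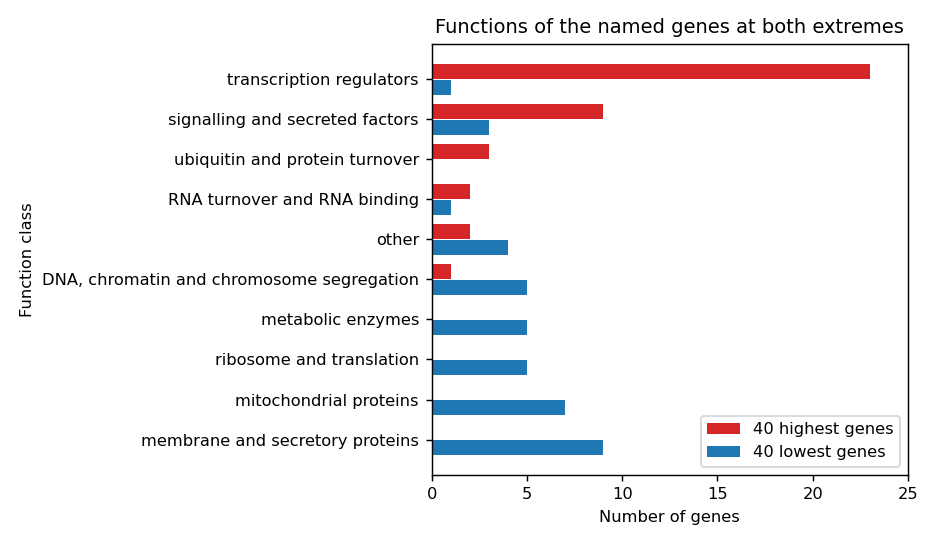
Number of genes in each function class (y axis) among the 40 named genes with the highest and the 40 with the lowest ratio of 4sU 30 min to input. Transcription regulators number 23 among the highest and 1 among the lowest, while mitochondrial proteins number 0 and 7.

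The lowest named gene was RPS25, a protein of the small ribosomal subunit, with 7.15 CPM in 4sU 30 min and 81.3 CPM in input at chr11:118886421 on the minus strand, 11.4-fold lower (8.95 to 14.7). RIDA, an enzyme that clears reactive enamines and imines, followed with 2.69 against 30.5 CPM, 11.3-fold lower (7.67 to 17.4). DYNLT2B, a light chain of the dynein-2 motor of cilia, had 2.90 against 31.1 CPM, 10.7-fold lower. DECR1, a mitochondrial enzyme of unsaturated fatty acid oxidation, had 4.04 against 40.8 CPM, 10.1-fold lower. These 4 sites passed the minimum in input only, at levels in 4sU 30 min between 2.69 and 7.15 CPM.

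CD47, the surface signal that holds back phagocytes, was 9.78-fold lower (8.39 against 82.1 CPM), TMBIM4, a Golgi membrane protein, 9.75-fold and RNASEH2B, a subunit of the RNase H2 complex, 9.54-fold. NDUFB1, a subunit of respiratory complex I, was the lowest named gene whose site passed in both libraries: 32.0 CPM in 4sU 30 min and 294 CPM in input, 9.17-fold lower (8.19 to 10.3). NAP1L1, a histone chaperone, had 24.6 against 225 CPM and was 9.17-fold lower (8.05 to 10.5), and ATP1B3, a sodium pump subunit, was 9.03-fold lower. MPC1, a subunit of the carrier that brings pyruvate into mitochondria, had 19.1 against 165.9 CPM, 8.70-fold lower. CFAP36, NDUFA5 of complex I, CHORDC1, a co-chaperone, and ACP1, a phosphatase, closed the 15 lowest at 8.58-, 8.41-, 8.35- and 8.14-fold. The 15 lowest genes thus spanned 8.14- to 11.4-fold, and the intervals of neighbours in this order overlap.

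The highest named gene was NOCT, a circadian protein of the deadenylase family, with 109.6 CPM in 4sU 30 min and 3.17 CPM in input at chr4:139967091 on the plus strand, 34.5-fold higher (28.2 to 42.7). The zinc finger genes ZNF296 and ZNF574 followed at 120.2 against 3.57 CPM, 33.7-fold higher (27.8 to 41.1), and 409.3 against 13.5 CPM, 30.4-fold higher (27.6 to 33.6). HES5, a Notch-responsive repressor, had 56.4 against 2.01 CPM, 28.0-fold higher. ZNF703, a corepressor, had 1611 against 59.4 CPM, 27.1-fold higher (25.9 to 28.4), and passed the minimum in both libraries. All of these were low in input, at 59.4 CPM or less, and the intervals of neighbours overlap again.

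NKX2-3 and TGIF1, homeobox factors, were 26.4- and 25.3-fold higher, and ZNF416, ZNF408 and ZNF134 were 24.8-, 22.4- and 22.2-fold higher. FEM1A, a substrate receptor of a ubiquitin ligase, had 1022 against 46.0 CPM, 22.2-fold higher (21.1 to 23.5), and was the other gene among the 15 highest whose site passed in both libraries. NFIL3, a repressor of the circadian and immune systems, CCN1, a secreted matrix protein, and CSRNP1, a nuclear transcription factor, were 21.04-, 20.9- and 20.9-fold higher. C15orf39 closed the 15 highest at 20.4-fold. Just below came DUSP1, a phosphatase that switches off MAP kinases, with 399.4 against 19.7 CPM, and MYC, the growth-promoting transcription factor, with 527.9 against 26.3 CPM, 20.3- and 20.04-fold higher.

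**Figure D3:**
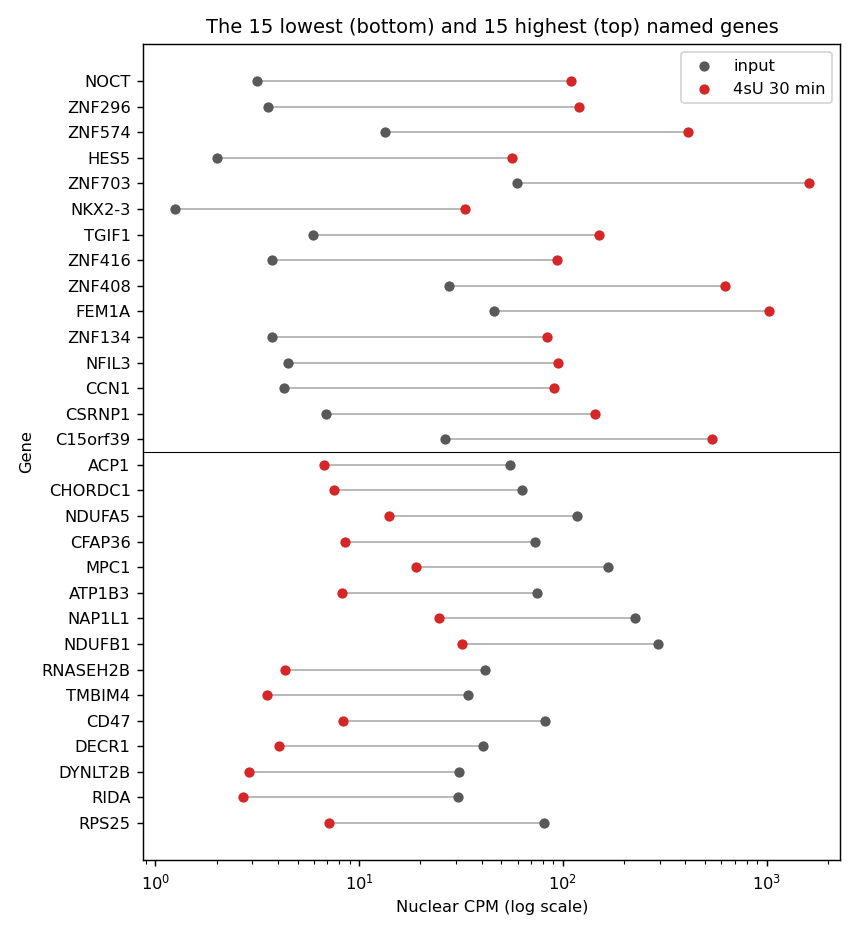
Nuclear CPM (x axis, log scale) in 4sU 30 min and input of the 15 named genes with the highest ratios (top) and the 15 with the lowest (bottom), 1 library each. NOCT lies at 109.6 against 3.17 CPM and RPS25 at 7.15 against 81.3 CPM.

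Lists of genes drawn up by function, with earlier results of these data known, were then described gene by gene. A gene's value is that of its site with the most counts, 512 genes of 27 lists had a member site, and of all member sites 33.2% were called higher and 22.2% lower with a median log2 ratio of 0.21. Because a site that passed in 1 library only had to have more CPM there, the lists at either end are given with the number that passed in both libraries.

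Proteins of the cytoplasmic ribosome and of the respiratory chain were mostly lower in 4sU 30 min. Of 67 genes for proteins of the cytoplasmic ribosome, 0 were higher, 55 lower and 12 neither, with a median log2 ratio of -1.65 (-1.69 over the 61 that passed in both libraries). RPL37A, the most abundant site of the input, had 12495 CPM there and 2180 CPM in 4sU 30 min, 5.73-fold lower (5.65 to 5.81). RPLP1, of the ribosomal stalk, had 8860 against 2879 CPM, 3.08-fold lower, and RPS23, of the decoding centre, had 7193 against 1794 CPM, 4.01-fold lower. After RPS25, RPL27 was lowest with 121.9 against 903 CPM, 7.40-fold lower. The highest were RPL13A with 761 against 521 CPM, 1.46-fold the input, and RPL10A with 114.0 against 123.1 CPM, and neither was called. The number of reads per gene differs widely in this list, from 33.7 CPM of RPL10 to 12495 CPM of RPL37A in input; many of these genes have processed pseudogenes, and the handling of reads with several matches was not given in the sources used here. This holds for ACTB and for other genes with such copies as well.

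The respiratory chain and ATP synthase had 61 genes, 0 higher, 51 lower and 10 neither, with a median of -1.76 (-1.64 over the 55 that passed in both libraries). Their lowest members were NDUFB1 and NDUFA5 above, both of complex I, followed by NDUFB6 with 26.2 against 189 CPM, 7.21-fold lower, and COX6C, of cytochrome oxidase, with 100.7 against 722 CPM, 7.17-fold lower. COX7C, of the same complex and the most abundant of the list, had 631 against 2783 CPM. CYC1 and UQCRFS1, catalytic subunits of complex III, were the highest, at 276 against 346 CPM and 116 against 97.1 CPM, neither called. Both lists lay below the median of all member sites under each scaling, minimum and merging distance tried.

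Abundance went with the ratio. The 457 member sites with at least 300 input CPM had a median log2 ratio of -1.11 and 56.0% were called lower, as against a median of -0.26 over 1982 sites between 30 and 60 input CPM; the input count stands in both measures. At or above 300 CPM the ribosomal protein genes had a median of -1.81, with 46 of 53 lower, and the respiratory genes -1.76, with 37 of 44 lower. Mitochondrial ribosomal protein genes of that level had a median of -0.63, with 1 of 7 lower. Chaperonins and heat shock proteins of that level had a median of -1.12 and proteasome subunits -1.25, close to the -1.11 of all such sites. Their shares called lower, 81.8% (9 of 11) and 69.2% (9 of 13), were above the 56.0% of all such sites. Whether abundance has a part in the list values was not tested.

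Ribosomal protein mRNAs are known to begin with a 5′ terminal oligopyrimidine tract, a C at the first base followed by a run of C and T, which couples their translation to growth. RefSeq promoters of the GRCh38.p14 table, 250 bases before to 50 after the annotated start, matched 55 of the 67 genes. Of these, 39 (70.9%) have a C at the start followed by at least 4 C or T, as against 1104 of 27305 promoters in the table (4.04%). Windows of 30 bases, 20 before the start and 10 after it, are shown for abundant or low members, with the run from the start in capitals where there is one:
RPS25, chr11:119018334-119018363, minus strand: ccgtttctgagcagcgcttcCTTTTTgtcc
RPL37A, chr2:216498824-216498853, plus strand: cctgcgcaccgcgtctcttcCTTTCTgggc
RPLP1, chr15:69452798-69452827, plus strand: gctgcgtataggcgcgagagCCCCTTTCCT
RPS23, chr5:82278345-82278374, minus strand: ctccttcctgcggtgcttctCTCTTTCgct
RPS21, chr20:62387083-62387112, plus strand: tgccgggtgactagctgcttCCTTTCTCTC
RPL27, chr17:42998399-42998428, plus strand: cctcaccggggtgaaaggttagcggaagtg
The 39 genes with the run had a median log2 ratio of -1.78 and the 16 without it -1.48, with ranges that overlap (-3.51 to 0.55 and -2.89 to -0.11). RPL27, whose annotated start shows no run, is the second lowest of the list. RPS21 had 347 against 2454 CPM, 7.06-fold lower (6.82 to 7.31).

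Lists of protein folding, protein breakdown and the core of the spliceosome had medians below that of all member sites. The proteasome list had 0 higher and 17 lower of 25, with a median of -1.22; PSMB1 of the core particle had 134.2 against 638 CPM, 4.76-fold lower, and PSMD4, a ubiquitin receptor, was 4.03-fold lower, while PSMC3 and PSMD7 stood at 1.20 and 1.18 times the input. Chaperonins and heat shock proteins had 1 higher and 14 lower of 22, with a median of -1.11. HSPD1, the mitochondrial chaperonin, was 6.38-fold lower (227 against 1446 CPM) and HSP90AA1 6.30-fold lower. DNAJB1, an inducible cochaperone, was the 1 gene called higher, at 1174 against 265 CPM, 4.43-fold (4.30 to 4.55), and HSPA5, the chaperone of the endoplasmic reticulum, was not called at 1.30-fold.

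In the list of snRNP and LSM proteins 7 of 9 were lower, led by SNRPF (36.4 against 228 CPM, 6.28-fold) and SNRPG (4.74-fold); SNRPA, the U1 protein that binds its own mRNA, was 2.40-fold higher and SNRPB was not called. Of 19 hnRNP genes 3 were higher and 7 lower. HNRNPA2B1 was 6.64-fold lower (101.4 against 673 CPM) and HNRNPR 3.70-fold lower, while PTBP1, the polypyrimidine tract binding protein, was 3.77-fold higher (1534 against 406.6 CPM) and HNRNPA0 2.59-fold higher. Sister genes of a family thus lay on both sides.

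Glycolytic enzymes had 4 lower and 0 higher of 11: LDHB was 3.97-fold lower (640 against 2542 CPM), PGK1 3.30-fold lower, and HK1 and ALDOA stood at 1.21 and 0.782 times the input. GAPDH, with 5084 against 7043 CPM, lay within 2-fold. Of 20 mitochondrial ribosomal protein genes 5 were lower and 1 higher; MRPL39 was 5.57-fold lower, MRPL3 3.02-fold lower and MRPL36 2.28-fold higher, and MRPS12 was not called at 1.58-fold. Of 20 actin cytoskeleton genes 7 were lower, such as ARPC3 of the Arp2/3 complex, 5.20-fold, and TPM1, a tropomyosin, 3.96-fold, and 2 higher: MYH9, a myosin heavy chain, at 2.06-fold and ACTB at 2.05-fold. Both of these calls were lost, and 11 genes were lower, with median-of-ratios size factors and with mitochondrial counts in the totals. TUBB4B, a tubulin, was 3.39-fold higher, TUBA1A 2.17-fold lower, and 7 of 9 tubulin genes were neither, with TUBA1B, the second most abundant site of 4sU 30 min, at 8795 against 9735 CPM.

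At the other end stood genes of rapid response. All 17 immediate early and serum response genes with a member site were called higher, with a median log2 ratio of 2.99 (2.42 over the 7 that passed in both libraries), and 10 passed only in 4sU 30 min. CCN1 and MYC led the list. The lowest were MCL1, an apoptosis inhibitor, with 299.5 against 115.5 CPM, 2.59-fold higher (2.47 to 2.72), and SRF, the serum response factor, with 130.6 against 43.8 CPM, 2.99-fold. Another 18 genes of the list had sites below the minimum and are in no count. EGR1, a zinc finger factor induced within minutes of stimulation, had 27.6 against 1.92 CPM there, FOS, a leucine zipper factor, 14.4 against 1.31 CPM, and EGR3 rested on 6 against 7 counts.

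Feedback inhibitors of signalling, a list of DUSP, SPRY, SPRED, TRIB and inhibitory SMAD genes with ERRFI1 and NFKBIA, had 13 higher and 0 lower of 15. Their median was 2.51, but 12 passed only in 4sU 30 min, and the median over the 3 that passed in both libraries was 0.73. SMAD7, the inhibitor of TGF-beta signalling, was second after DUSP1 with 86.9 against 6.53 CPM, 13.3-fold higher (11.4 to 15.5). Among the 15, DUSP9 and DUSP3 were lowest at 1.22- and 1.66-fold, neither called. The list had 26 genes with a written end, and those without a member site are in no count. Among these, DUSP2 had 270 against 60 counts, DUSP4 12 against 15 and DUSP6 4 against 14. With a minimum of 10 CPM in either library, 15 of 18 were higher and 0 lower. All 7 KLF and SP factors were higher, from SP2 (3.48-fold) and KLF15 (3.77-fold) to KLF16 (9.28-fold) and KLF11 (134.1 against 12.3 CPM, 10.9-fold), and none of them passed the minimum in input.

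Developmental transcription factors lay beside them. Of 27 homeobox, SOX, FOX and T-box genes 23 were higher and 0 lower, with a median of 2.47 that was the same over the 11 passing in both libraries. OTX1 followed NKX2-3 with 85.2 against 5.80 CPM, 14.7-fold, and HOXC10 (34.2 against 31.4 CPM) and FOXM1, a cell cycle factor, were lowest at 1.09- and 1.59-fold. Of 10 ID, HES, HEY and related repressors 8 were higher, with a median of 2.96, and 1.73 over the 5 that passed in both libraries. HEY1 was 15.95-fold, and ID3, an inhibitor of basic helix-loop-helix factors, rested on 1584 against 136.6 CPM, 11.6-fold (11.2 to 11.99). HES6 and HES4 were not called, at 0.883- and 1.75-fold. Of 8 corepressors and coregulators 6 were higher, led by TGIF1, which was counted in this list, at 25.3-fold, and CITED2 at 15.9-fold. HDAC1, a histone deacetylase, was 2.62-fold lower and TLE5 was not called. The median of this list was 3.14, and -0.15 over the 3 that passed in both libraries.

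Promoters of the list genes called higher held the letters TATAAA between 45 and 16 bases before the start in 13 of 111 cases (11.7%), those of genes called lower in 2 of 161 (1.24%) and those of neither in 12 of 149 (8.05%), as against 2.63% of all promoters in the table. The letters CCAAT, on either strand of the 300 bases, were in 61.3%, 37.3% and 42.3% in the same order, and in 35.7% of all. The letters TGACGTCA were in 5.41%, 3.11% and 4.70%, and in 1.98% of all; the CArG box, the serum response motif, on either strand was in 1.80%, 2.48% and 1.34%, and in 1.29% of all. Median G and C content was 67.7%, 60.3% and 63.7%, and 58.3% for the table. These groups follow the choice of lists: of 199 list genes called lower, 55 were of the cytoplasmic ribosome and 51 of the respiratory chain. TATAAA was in 4 of 11 immediate early, 3 of 9 ID, HES and HEY, and 4 of 9 histone variant and HMG promoters. It was in 0 of 5 KLF and SP and 1 of 21 homeobox, SOX, FOX and T-box promoters. Whether these shares go with the ratio or with the lists was not tested. The 30 bases searched for TATAAA, shown with the match in capitals for 4 of the 40 highest genes that hold it, are:
DUSP1, chr5:172771211-172771240, minus strand: cccccagaggccgcaTATAAAcgcgctccc
ADM, chr11:10305028-10305057, plus strand: ctcccccacccgtgcgctTATAAAgcacag
ZC3H12A, chr1:37474535-37474564, plus strand: tgcccgcgcgccgccccaTATAAAggcgcc
NRARP, chr9:137302287-137302316, minus strand: caaaTATAAAgaaggtaaaaggcgccccgg
ADM, a vasodilator peptide, was 17.7-fold higher (340.6 against 19.2 CPM), ZC3H12A, an RNase that degrades inflammatory mRNAs, 18.5-fold (77.8 against 4.21 CPM), and NRARP, a feedback inhibitor of Notch, 13.7-fold (62.5 against 4.55 CPM). The 4 genes shown all hold TATAAA, and how many of the 40 highest genes do was not counted. A match is a description of these letters, and coordinates of the windows are those of GRCh38.p14.

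Stress response genes were higher in 11 of 15 and lower in 0, with a median of 2.00 (1.56 over the 12 that passed in both libraries). With a minimum of 10 CPM in either library, 13 of 20 were higher and 1 lower, with a median of 1.55. DDIT4, which restrains mTORC1, had 2453 against 232 CPM, 10.6-fold (10.3 to 10.8), and SESN2, a leucine sensor of the same pathway, had 864 against 118 CPM, 7.32-fold. ATF4, whose protein drives the response, stood at 670.3 against 669.4 CPM, a ratio of 1.001, and PHGDH, of serine synthesis, at 0.945. Of 13 snoRNA host and long non-coding RNAs 8 were higher, with SNHG15 (563 against 69.9 CPM, 8.05-fold) and SNHG3 (6.69-fold) at the top. SNHG5 was 2.58-fold lower and NORAD was not called at 1.14-fold. All 13 of these RNAs passed in both libraries.

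**Figure D4:**
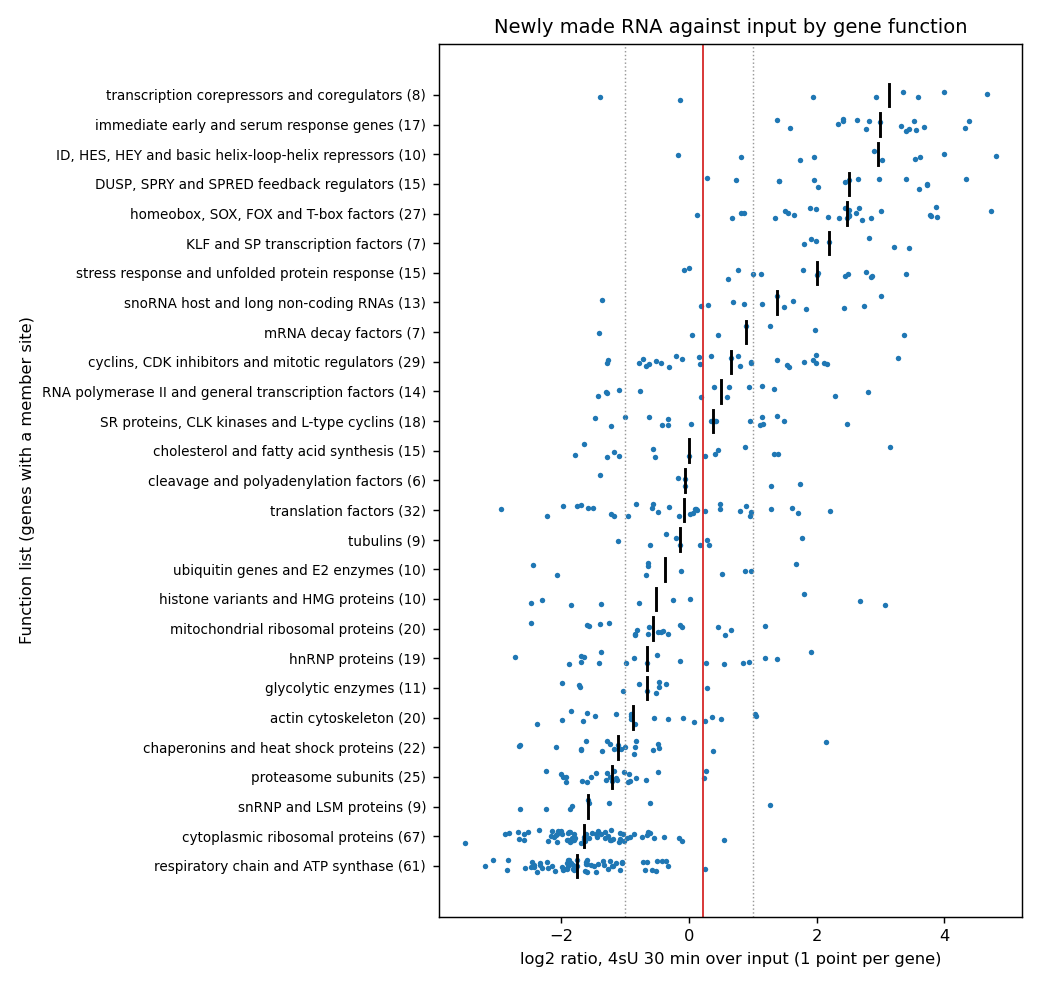
log2 ratio of 4sU 30 min to input (x axis) for each gene of 27 function lists (y axis, with the number of genes), a black bar at each list's median, a red line at the median of all member sites (0.21) and dotted lines at 2-fold. The respiratory chain has the lowest median (-1.76) and the corepressors the highest (3.14). Of the 8 corepressor genes, 5 passed the minimum in 4sU 30 min only, and the 3 that passed in both libraries had a median of -0.15.

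Lists with other roles spread over both sides, and those of translation factors, tubulins, cholesterol synthesis, cleavage factors and SR proteins changed side of the median of all sites under some setting. Of 32 translation factors 4 were higher and 9 lower, with a median of -0.07: EIF1, which guards start codon choice, was 4.62-fold higher (1948 against 422 CPM) and EIF5, its partner in start codon recognition, 3.27-fold higher, while EIF3E and EIF3K, subunits of the eIF3 complex, were 7.71- and 4.68-fold lower. Of 29 cyclins, CDK inhibitors and mitotic regulators 10 were higher and 2 lower. CDT1, the licensing factor of DNA replication, was 9.69-fold higher (657 against 67.8 CPM) and WEE1, a mitotic brake, 4.47-fold higher; PTTG1, securin, and CENPF, a kinetochore protein, were 2.45- and 2.40-fold lower. Of 18 SR proteins, CLK kinases and L-type cyclins 6 were higher and 3 lower: CLK3 and SRSF6 were 5.58- and 2.80-fold higher and TRA2A and SRSF11 2.79- and 2.35-fold lower. With median-of-ratios size factors 3 were higher and 3 lower, and with mitochondrial counts in the totals 2 and 4.

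Histone variants and HMG proteins parted by family. H2AX, H1-10 and H3-3B were 8.42-, 6.39- and 3.50-fold higher, and HMGN3, HMGB1, HMGN1 and HMGB2, chromatin architectural proteins, were 5.60-, 4.95-, 3.63- and 2.60-fold lower, with 3 of the 10 genes neither. In the cholesterol and fatty acid list 3 of 15 were higher and 5 lower. FASN, fatty acid synthase, was 2.63-fold higher, and the synthesis enzymes SQLE and FDPS were 3.46- and 3.12-fold lower. Of 14 genes of RNA polymerase II and its general factors 4 were higher and 4 lower: BRD2, a bromodomain coactivator, was 7.01-fold higher, and the polymerase subunits POLR2L and POLR2B 2.69- and 2.45-fold lower.

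Of 7 mRNA decay factors 3 were higher and 1 lower: TOB2 and TOB1, adaptors of the CCR4-NOT deadenylase, were 10.3- and 3.94-fold higher, HNRNPD, which binds AU-rich elements, was 2.65-fold lower, and CNOT7 was not called at 1.03-fold. Of 6 cleavage and polyadenylation factors 2 were higher and 1 lower, CSTF1 and WDR82 at 3.32- and 2.44-fold higher and CPSF3, the endonuclease, at 2.62-fold lower; PPP1CA was not called at 0.883-fold. Of 10 ubiquitin and E2 genes 1 was higher, UBE2L3 at 3.19-fold, and 2 lower, UBE2V2 and RPS27A at 5.45- and 4.201-fold.

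The most abundant site of 4sU 30 min was that of CENPB, a centromere protein whose gene has no intron, at chr20:3764500 on the minus strand. It held 3.83% of nuclear counts there and 1.10% in input, 3.47-fold higher (3.45 to 3.48), and a neighbouring CENPB site held 0.428% and 0.125%, 3.41-fold higher. ACTG1, cytoplasmic actin, was not called with 4889 against 3464 CPM, a ratio of 1.41.

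Ends of a gene need not share a ratio. Of 149 named genes with more than 1 member site, 114 had exactly 2, the median distance between a gene's highest and lowest log2 ratio was 0.82, and 67 genes spread by more than 1. In 5 genes a site was called higher and another lower, and 4 of them are described. At RPL38 the main end had 1116 CPM in 4sU 30 min and 4426 CPM in input, 3.97-fold lower, while a site 776 nt downstream had 107.2 against 2.59 CPM, 41.3-fold higher. At RPL27 a site 2708 nt upstream of the main end had 78.9 against 18.2 CPM, 4.33-fold higher.

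In BIRC5, encoding survivin, the log2 ratio went from -1.24 at the most upstream of 4 sites through 0.15 and 1.12 to 1.69 at the most downstream. In GPI, a glycolytic enzyme, the upstream end was 3.26-fold lower and the downstream end 2.27-fold higher. The lowest site of all lay in FKBP3, a prolyl isomerase, where a minor end had 1.76 against 32.2 CPM, 18.3-fold lower, and the main end 135.8 against 414 CPM, 3.05-fold lower. Ends of neighbouring genes could be among such secondary sites, since no hg19 annotation was used.

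**Figure D5:**
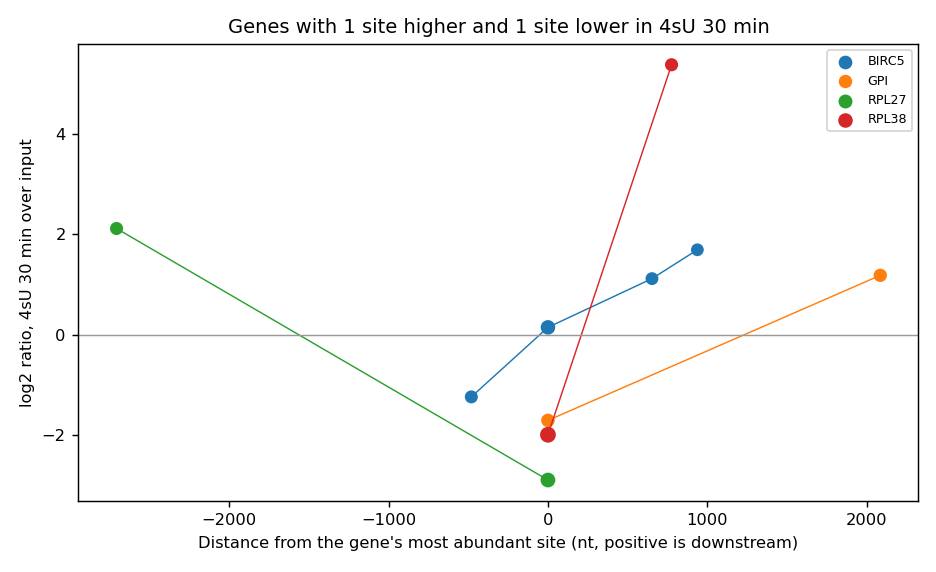
log2 ratio of 4sU 30 min to input (y axis) of each member site of 4 genes with a site called higher and another called lower, against its distance in nt from the gene's most abundant site (x axis, positive is downstream); point area grows with the log of the summed CPM. In BIRC5, GPI and RPL38 the downstream end has the higher ratio (5.37 at RPL38), and in RPL27 the upstream one.

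The extremes of all sites differed in kind. Of the 100 lowest sites, 87 lay at ends of 84 named genes and 13 had no certain gene, and no site had at least 90% of its counts at 1 position. Of the 100 highest, 27 lay at ends of 24 named genes and 10 lay near the start of a named gene. Near meant from 1 kb upstream to 3 kb downstream of a start written by hand in kb. Another 24 had at least 90% of their counts at 1 position and no certain gene, and the other 39 had no certain gene. Of these 100 sites, 2 passed the minimum in both libraries, against 24 of the 100 lowest. The highest of all was chr12:81839019 on the plus strand, with 2890 against 7 counts. It was followed by chr4:124753552 on the plus strand with 2173 against 11 counts and chr6:39313842 on the minus strand with 472 against 3. At the low end, the unnamed chr10:75181970 on the minus strand had 22 against 1311 counts, chrX:70183199 on the plus strand 19 against 1029, and chr10:101996804 on the minus strand 31 against 1341.

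Sites near gene starts were noticed after their values were seen. Beside 25 recognised genes, 27 such sites were all called higher, from 3.09 to 4.89 on the log2 scale, and all passed in 4sU 30 min only. Starts were written for 26 genes only, and starts of other genes were not searched. Of all member sites 33.2% were called higher, and of the 1984 that passed in 4sU 30 min only, 1622 were. The direction of the 27 sites was thus set by how they were picked and does not describe sites near starts in general. ABL1, a tyrosine kinase gene, had one with 114.1 against 3.85 CPM, and YWHAH, of the 14-3-3 adaptor family, one with 91.0 against 3.60 CPM. EIF4G3, a translation initiation scaffold, had the most abundant, with 370.7 against 26.9 CPM. Among all members, 47 sites had at least 90% of their counts at 1 position, with a median log2 ratio of 4.48. Of these, 42 were higher and 4 lower, as against 33.2% and 22.2% of all member sites. The 24 of them among the 100 highest sites all passed in 4sU 30 min only, so their direction was set by the minimum. How many of the 47 passed in 1 library only was not counted.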

How the data were processed

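Each deposited file lists a library's read counts by chromosome, position and strand; the values are whole and not normalized by the authors. Cutadapt and Bowtie are named, per the submitters' processing notes; versions, settings, build and the handling of multiple matches were not given in the sources used here. Listed strands were read as those of the RNA. Per the labels' protocols, poly(A) RNA was cut with RNase T1, selected again and copied with an anchored oligo(dT) primer.

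Positions were merged within 24 nt, chrM was left out of CPM, and a count of 0 would be set at a floor of 3 counts (no member site had one). A call needed a ratio of 2 or more and a 95% interval (Clopper-Pearson, scipy) without 1. The code was tested on simulated data. Members, lists and tests were chosen with earlier results of these data known. The planned naming, within 50 nt of an annotated end, needs an annotation of the files' build and was replaced. Gene ends were written by hand in kb of hg19 numbering from general knowledge, for 761 genes; a site from 3 kb upstream to 1 kb downstream took the nearest name, the GRCh38.p14 RefSeq table checked only symbol, chromosome, strand and gene order, and 0 names were dropped. Of these genes, 66 at the low and 34 at the high extreme were placed after their values were seen and enter no list count. Of the list genes, RPL36 had its place moved by 1 kb and 1 RNA polymerase II subunit was taken out, both after their sites were seen, since a neighbour's end could be taken for theirs. Named in the text are the 15 highest and 15 lowest genes, the 5 most abundant sites of each library, the 2 highest and 2 lowest genes of each list, and members that account for a list. Other genes, such as those of the 40 at each extreme, with several ends or near starts, were chosen after their values were seen. Python 3.11.15, numpy 2.4.6, pandas 2.3.3 and scipy 1.17.1 were used. The library labelled for 60 min was counted for the total of sites only. A few genes that the naming rule selects are not reported here.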

Additional observations from a re-analysis of the deposited data

Results flagged for a closer look

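Counts on the mitochondrial genome, which no comparison of nuclear sites used, made up 31.8% of the 4sU 30 min library and 7.46% of the input library, above the input level; with 1 library each, this difference has no replicate check.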

How the results depend on the processing

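With mitochondrial counts in the totals, 1120 sites were higher instead of 2129 and the median log2 ratio was -0.55 instead of 0.21; with median-of-ratios size factors the median was 0. At least 10 CPM in either library gave 5053 higher, 2455 lower and a median of 0.45; at least 100 CPM gave 596, 620 and -0.21, with 86 list genes higher instead of 136. A mean of at least 30 CPM gave 1364 higher and a median of 0.026, and the 4-fold call 1072 higher and 306 lower. Requiring 30 CPM in both libraries, chosen after seeing the data, gave 507 higher, 674 lower, a median of -0.13 and 66 list genes higher. Merging within 10 or 50 nt, leaving out single-position sites, summing a gene's sites and names within 1 kb, the last also chosen after seeing the data, kept the counts within 1.5 times. With names within 1 kb, however, 1 cytoplasmic ribosomal protein gene and 1 glycolytic gene were called higher instead of 0. List genes called lower stayed within 1.5 times of 199 under all alternatives run for them. Of 27 lists, 22 kept their side of the median of all sites under every alternative run for lists; the exceptions were translation factors, tubulins, cholesterol synthesis, cleavage factors and SR proteins. Counts within lists moved by over 1.5 times with mitochondrial counts in the totals, where some genes also left the list: genes higher were 6 instead of 13 for feedback inhibitors, 1 instead of 3 for hnRNP proteins and for cholesterol synthesis, 2 instead of 4 for RNA polymerase II, 1 instead of 2 for cleavage factors and 0 instead of 1 for snRNP proteins. Genes lower were then 10 instead of 5 for mitochondrial ribosomal proteins (8 with median-of-ratios size factors), 5 instead of 2 for cyclins and for ubiquitin genes, and 2 instead of 1 for tubulins; the 1 mitochondrial ribosomal protein gene called higher was not called under either scaling. The 15 highest and 15 lowest genes had 275 values under alternatives, with direction and call kept in each; a gene has a value only where its site was still a member, and with 30 CPM in both libraries only ZNF703, FEM1A and NDUFB1 of the 30 were. The planned naming within 20, 50 or 500 nt of an annotated end was not run, as it needs an annotation of the files' build. No paired analysis was possible because each group has 1 library.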
